A study of Mus musculus with 3 samples.

Results

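The EGF and FGF receptor genes *Egfr*, *Erbb2*, *Erbb4*, *Fgfr1*, *Fgfr2* and *Fgfr3*, the ligand genes *Hbegf* and *Fgf2*, and the feedback inhibitor genes *Spry1* and *Spry2* were followed across cells of the mouse retina. They were chosen by symbol and are 10 of the 32287 features counted. They were described in the cells sorted as Müller glia (MG), in cycling and other cells among them, and in neurons named by their markers. EGF and FGF receptors are receptor tyrosine kinases: a ligand brings receptors together in pairs, and the pair signals through the RAS-ERK cascade to the nucleus. Sprouty proteins are made in response to that cascade and damp it. In the retina, EGF-family and FGF ligands are known as mitogens for MG after injury, and FGF2 is known as a survival factor for photoreceptors.

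The study asked whether forcing the cell cycle makes MG of the adult mouse retina divide and change fate. All mice carried Glast-CreERT2, which drives recombination in MG, and the R26-CAG-LSL-Tdt reporter, and all received tamoxifen at 75 mg/kg on 5 consecutive days starting at P20. At P28 the control eyes received the AAV7m8 vector GFP-LacZsh under a GFAP promoter, and the CCA (cell cycle activator) eyes received a 9 to 1 mixture of a cyclin D1 and p27 shRNA vector under the same promoter with that GFP vector. The CCANT eyes received the CCA mixture, then NMDA at P35, which injures inner retinal neurons, and trichostatin A (TSA) at P37, a histone deacetylase inhibitor. Retinas were taken at P51, and tdTomato cells were sorted from 2 to 4 pooled retinas per group. The tamoxifen dose and days, the day of harvest and the shRNA of the control vector follow the sample labels. The paper gives another tamoxifen dose and other days, states the harvest in weeks after infection, and names a non-target shRNA.

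There was 1 droplet library per group. The authors' series-wide table held 3758 control, 3890 CCA and 3278 CCANT cells, called kept cells below, with medians of 24235.5, 20710.5 and 20721.5 UMIs (unique molecules counted) per cell. Of these, 3747, 3844 and 3261 passed a gate on 9 MG markers, which were summed at 15900, 13840 and 13000 CPM (UMIs per 1000000 UMIs). The libraries were not alike in sex: 3505 kept control cells had Y-linked UMIs and 0 had *Xist*, 0 and 3859 did in CCA, and 1183 and 1718 did in CCANT. Sex and treatment thus cannot be told apart between control and CCA. By the paper, its final cells include a cluster of rods and a cluster of MG with rod transcripts, the latter enriched in CCA and CCANT. A gate on rod markers was passed by 9 (control), 74 (CCA) and 101 (CCANT) kept cells. The sum of 13 rod markers in kept cells was 408.7 (control), 1205 (CCA) and 2280 CPM (CCANT), and that of 28 immediate-early and dissociation genes was 5092, 8908 and 8724 CPM. Between 2 and 8 kept barcodes were shared by each pair of libraries.

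Levels are summed UMIs of a gene in CPM, scaled to all UMIs of the cells, and the ratios are on the log2 scale. With 1 library per group there was no replicate and no test, so each ratio carries an exact 95% Poisson interval in brackets, which covers counting error only and not differences between mice. A gene was called higher or lower when it was past 1.5-fold with at least 50 UMIs over the 2 pools. Shares of cells with a UMI were taken after each cell had been thinned at random to 4000 UMIs. Because 3′ counts with introns depend on the gene, levels of different genes are not compared.

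Of the 10 genes, *Erbb4* and *Fgfr3* were past 1.5-fold in kept cells of the treated libraries, both higher than in control and both scarce. The receptor *Egfr* was lower in both treated libraries, by less than 1.5-fold. *Hbegf*, *Spry1* and *Spry2* were higher in both, also by less than 1.5-fold, and *Fgf2* differed little. CCA over control and CCANT over control share the control library, so they are not separate evidence.

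**Figure D1:**
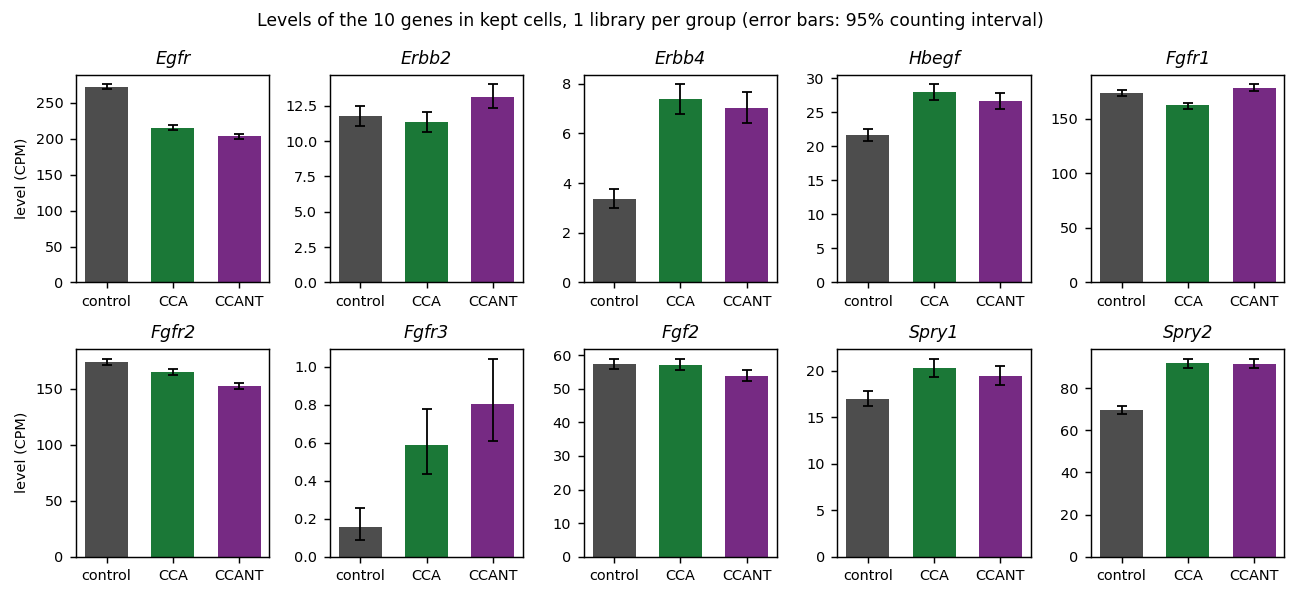
Level in kept cells (CPM, linear axes from 0, a scale per gene) in the control, CCA and CCANT library, with 1 bar per library and error bars for the 95% counting interval. *Egfr* is tallest in control, at 272.5 CPM against 215.8 and 203.4, while *Erbb4*, *Hbegf*, *Fgfr3*, *Spry1* and *Spry2* are lowest in control.

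*Egfr*, the receptor for EGF and HB-EGF (chr11:16752203-16918158, GRCm38, plus strand), stood at 272.5 (control), 215.8 (CCA) and 203.4 CPM (CCANT). The log2 ratio to control was -0.34 [-0.36, -0.31] for CCA and -0.42 [-0.45, -0.39] for CCANT. The treated libraries lay close to each other and apart from control by more than counting error. After thinning, 59.15% of control, 49.99% of CCA and 50.63% of CCANT kept cells held an *Egfr* UMI. Without thinning the shares were 95.72%, 88.33% and 90.51%. In bipolar-like cells, with medians of 14431 to 16801 UMIs per cell, the thinned shares were 1.685%, 2.041% and 1.862%. In amacrine-like cells they were 11.89%, 18.67% and 7.824%. The share was thus higher in kept cells than in either class, and the part of stray RNA was not tested. The CCANT over control ratio was -0.43 in Y-linked cells alone, and CCA had none to compare. In MG left out of the authors' table the ratios were -0.35 [-0.39, -0.31] for CCA and -0.35 [-0.38, -0.31] for CCANT, the latter a smaller difference than in kept cells.

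*Erbb2* (chr11:98412470-98437716) encodes the partner receptor that has no known ligand of its own. It was at 11.75 (control), 11.34 (CCA) and 13.13 CPM (CCANT). CCA over control was -0.05 [-0.18, 0.07], and CCANT over CCA was 0.21 [0.08, 0.34]. The CCANT library was thus slightly above the other two. Its last bases overlap *Mien1* on the opposite strand.

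*Erbb4* (chr1:68032186-69108059), a neuregulin receptor that also binds HB-EGF, was at 3.373 (control), 7.362 (CCA) and 7.003 CPM (CCANT), from 322, 613 and 496 UMIs. The log2 ratio to control was 1.13 [0.93, 1.33] for CCA and 1.05 [0.85, 1.26] for CCANT, a 2.182-fold and a 2.076-fold difference. The UMIs were in 182, 274 and 206 cells, and the 10 cells with most of them held 37.27%, 21.21% and 27.42%. Thinned shares were 0.8249%, 2.161% and 1.984% in kept cells against 2.523%, 2.682% and 1.522% in rod-like cells. The share was lower in kept than in rod-like cells of control, and the intervals of both overlapped in CCA and CCANT. Kept over rod ratios of the levels were -0.77 [-1.35, -0.14], -0.40 [-0.76, -0.03] and -2.0 [-2.23, -1.76], the last with most rod-like UMIs in 1 cell. No expression of *Erbb4* by MG is read from these values. Bipolar-like cells held *Erbb4* at 498.8, 522.7 and 407.0 CPM. Kept cells had 0.6762%, 1.409% and 1.721% of that, beside a median over 12 bipolar markers of 0.4272%, 0.5769% and 0.6939% and a highest marker of 8.075%, 9.28% and 10.06%. Amacrine-like cells held it at 324.5, 238.5 and 196.0 CPM, of which kept cells had 1.039%, 3.087% and 3.573%, beside a median over 10 amacrine markers of 1.048%, 1.015% and 0.6867% and a highest marker of 1.601%, 1.569% and 1.363%. *Erbb4* was thus above all 10 amacrine markers by this measure in CCA and CCANT, and between the median and the highest bipolar marker in all 3 libraries. The part of these cells in the ratio was not tested. Within CCANT, *Erbb4* was at 9.508 CPM in Y-linked and 5.202 in *Xist* cells, a ratio of 0.87 [0.59, 1.15]. These cells come from different mice, so sex and mouse cannot be told apart there. Control, whose cells of known sex were all Y-linked, was lowest at 3.373 CPM, and the part of sex in the ratios to control was not tested. In MG left out of the table *Erbb4* was higher than in kept cells, at 28.06 (control), 49.03 (CCA) and 36.45 CPM (CCANT). Single cells there held 264 of 1593, 251 of 2256 and 198 of 2389 UMIs. The ratio to control was 0.81 [0.71, 0.90] for CCA and 0.38 [0.29, 0.47] for CCANT.

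*Fgfr1* (chr8:25513654-25575718), a receptor for FGF2 and other FGFs, was at 173.7, 162.4 and 178.5 CPM in control, CCA and CCANT. Its ratios to control were -0.10 [-0.13, -0.06] and 0.04 [0.01, 0.07], and 49.1%, 45.05% and 50.02% of cells held a UMI after thinning. *Fgfr2*, another FGF receptor, was at 174.2, 165.0 and 152.7 CPM, with ratios to control of -0.08 [-0.11, -0.05] and -0.19 [-0.23, -0.15]. Both receptors were thus within 1.5-fold across the libraries. In the annotation used here *Fgfr2* spans chr7:130162451-133123350 because of 1 transcript. The next longest ends at 130266263, and 14 protein-coding genes of the same strand, *Oat* and *Ctbp2* among them, lie in the longer span. Which annotation the counting used is not given in the sources used here, so all *Fgfr2* levels are uncertain.

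*Fgfr3* (chr5:33721674-33737068), which encodes a further FGF receptor, was almost undetected in control, with 15 UMIs in 14 cells, against 49 in 44 cells of CCA and 57 in 54 cells of CCANT. These were 0.1571, 0.5885 and 0.8048 CPM, and the ratios to control were 1.90 [1.05, 2.85] and 2.36 [1.52, 3.28]. No kept cell held more than 2 UMIs of it. The CCA interval ran from 2.065-fold to 7.19-fold, so the few UMIs fix the direction better than the size. In MG left out of the table the ratios were 2.33 [1.40, 3.38] and 1.63 [0.69, 2.69], from 12, 49 and 43 UMIs. *Fgfr3* was also higher in cells with more immediate-early transcripts within each library, though on 1 and 9 UMIs in control. The part of these transcripts in the ratios to control was not tested.

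Among the ligands, *Hbegf* (chr18:36504927-36515805), which encodes the membrane-anchored HB-EGF that activates EGFR and ERBB4, was at 21.65 (control), 27.95 (CCA) and 26.64 CPM (CCANT). The ratios to control were 0.37 [0.28, 0.45] and 0.30 [0.21, 0.39]. After thinning, 6.466%, 8.49% and 9.429% of cells held a UMI, against 0.1531%, 0.2041% and 0.3546% of bipolar-like cells. In amacrine-like cells the shares were higher than in kept cells, at 11.03%, 10.6% and 12.94%. In MG left out of the table *Hbegf* was at 19.54, 20.28 and 22.55 CPM, with ratios of 0.05 [-0.07, 0.18] and 0.21 [0.09, 0.32], so the CCA difference seen in kept cells was not detected there. *Hbegf* was uneven between cells: a single control cell held 116 of the 2067 UMIs.

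*Fgf2* (chr3:37348346-37410108), the FGF that binds FGFR1 and other FGF receptors, was at 57.4 (control), 57.07 (CCA) and 53.92 CPM (CCANT). The ratios to control were -0.01 [-0.06, 0.05] and -0.09 [-0.15, -0.03], and 19.58%, 18.55% and 18.0% of cells held a UMI after thinning. Kept cells of the 3 libraries were thus nearly level for *Fgf2*. Rod-like cells held more of it, at 95.97, 159.5 and 143.1 CPM. Rod markers in kept cells were at 1.17% (control), 3.2% (CCA) and 4.97% (CCANT) of the rod-like level, and the part of rod RNA was not tested. *Nudt6*, transcribed from the opposite strand (chr3:37404910-37420211), overlaps the end of *Fgf2*.

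Of the feedback inhibitors, *Spry2* was at 69.58 CPM in control and at 91.73 in CCA and 91.63 in CCANT, with a ratio to control of 0.40 [0.35, 0.45] in both. The thinned share was 22.54% in control, 28.66% in CCA and 28.9% in CCANT, and the unthinned shares, at unequal depths, were 75.84%, 74.27% and 75.17%. *Spry1* was at 17.0, 20.3 and 19.46 CPM, with ratios of 0.26 [0.16, 0.35] and 0.19 [0.09, 0.30]. Both genes were higher in both treated libraries, *Spry2* by more. In MG left out of the table *Spry2* had ratios of 0.28 [0.22, 0.35] and 0.37 [0.31, 0.43], and *Spry1* had -0.02 [-0.15, 0.12] and 0.07 [-0.05, 0.20].

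**Figure D2:**
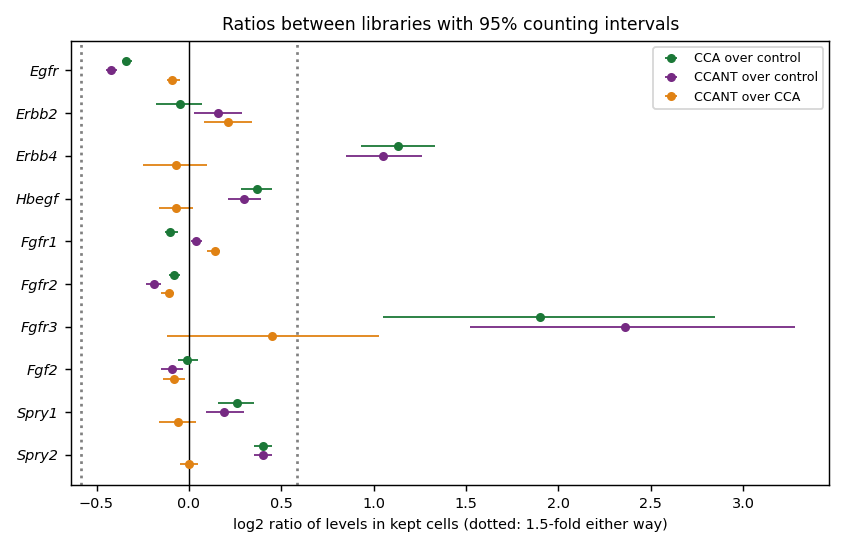
Log2 ratio of levels in kept cells for each gene (x axis), with CCA over control, CCANT over control and CCANT over CCA as points, 95% counting intervals as lines and 1.5-fold as dotted lines. *Erbb4* and *Fgfr3* lie beyond 1.5-fold against control, and no gene does between CCANT and CCA.

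By count, 2 of the 10 genes were called higher in CCA than in control and 0 lower, against 11.8% and 3.29% of all genes tested. In CCANT over control the same pair was called higher and 0 lower, against 11.0% and 5.93%. In CCANT over CCA 0 were called either way, against 3.1% higher and 6.03% lower. The median ratio over the members was 0.12, 0.18 and -0.06 in these comparisons, and that over all genes tested was 0.07, 0.03 and -0.04. With 10 genes, these counts are near those of all genes.

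The wider pathway was read from 7 lists of 84 genes that are not members. In CCA over control 8 of the 69 genes tested were higher and 0 lower, and in CCANT over control 6 of 66 were higher and 3 lower. The shares called over all genes were 11.8% higher and 3.29% lower in the former and 11.0% and 5.93% in the latter, so the counts were near those shares. All 19 adaptors and RAS-ERK cascade genes and all 12 other EGF receptors and direct regulators were within 1.5-fold in both comparisons, as were the 3 ETS factors. The EGF family ligand *Areg* (amphiregulin) was at 0.4086 (control), 1.357 (CCA) and 6.099 CPM (CCANT), with ratios of 1.73 [1.2, 2.3] and 3.90 [3.43, 4.41]. The neuregulin gene *Nrg2* was lower in CCANT, at 20.73 CPM against 37.43 in control (-0.85 [-0.94, -0.76]). Of 17 FGF family ligands, 7 and 6 had enough UMIs, and *Fgf20* was higher in CCA (0.85 [0.53, 1.17]) while *Fgf7* was lower in CCANT, with 13 UMIs against 37.

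Of the list of feedback inhibitors, 3 of 9 genes tested were higher in CCA than in control and 2 of 8 in CCANT. The other 6 were within 1.5-fold in each comparison, and the median ratio over the list was 0.17 in CCA and -0.0 in CCANT. The genes past 1.5-fold held larger differences than *Spry1* and *Spry2*. *Dusp5*, a nuclear ERK phosphatase, was at 2.755 (control), 16.12 (CCA) and 22.59 CPM (CCANT), with ratios of 2.55 [2.36, 2.74] and 3.04 [2.85, 3.23]. *Dusp4* had ratios of 0.69 [0.33, 1.06] and 0.97 [0.61, 1.33], and *Spry3* was higher in CCA, with 50 UMIs against 14. Of the FGF co-receptors and binding proteins, the heparan sulfate proteoglycan genes *Sdc1* and *Sdc3* were higher in both treated libraries, *Sdc3* at 1.875, 4.227 and 7.173 CPM. *Sdc4* was at 101.9 CPM in control and 201.5 in CCANT, and *Fgfbp3*, which encodes an FGF-binding protein, was at 30.13 and 13.72. *Klb*, the co-receptor for endocrine FGFs, was higher in CCA, with 36 UMIs against 17. Of the 28 immediate-early and dissociation genes, 23 were higher in CCA and 19 in CCANT than in control and 0 were lower. Over all genes, 11.8% were higher and 3.29% lower in CCA, and 11.0% and 5.93% in CCANT. *Egr3* was at 5.741 (control), 28.38 (CCA) and 45.14 CPM (CCANT). *Egr2*, *Nr4a1* and *Klf2* had ratios of 2.51, 2.42 and 2.86 in CCA and of 2.59, 2.67 and 2.80 in CCANT.

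Cycling cells were kept cells with at least 1 UMI of *Mki67* or *Top2a*, genes transcribed in S, G2 and M phase. They were 42 control (1.118%), 752 CCA (19.33%) and 299 CCANT cells (9.121%). With at least 3 UMIs of these genes together they were 2, 240 and 78, so the number depends on the threshold. Within the CCA library *Egfr* was at 188.4 CPM in cycling and 223.1 in other cells (-0.24 [-0.30, -0.19]), *Fgfr1* was at 144.5 and 167.1 (-0.21 [-0.27, -0.15]), and *Fgf2* was at 47.91 and 59.52 (-0.31 [-0.42, -0.21]). In the CCANT library these ratios were -0.13 [-0.21, -0.05], -0.12 [-0.20, -0.03] and -0.28 [-0.45, -0.12]. These genes were thus lower in cycling cells of both libraries, by less than 1.5-fold. *Spry2* had -0.13 [-0.21, -0.05] in CCA and -0.03 [-0.14, 0.09] in CCANT, and *Spry1* had -0.09 and 0.07 with intervals that include 0. *Fgfr2* had -0.13 [-0.20, -0.07] and -0.18 [-0.27, -0.08].

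Of the 9 members tested in CCA, 0 were called higher or lower in cycling cells, against 8.91% and 2.7% of all genes. Of the 10 tested in CCANT, *Erbb4* was called higher and *Fgfr3* lower, against 8.42% and 4.24% of all genes. *Fgfr3* rested on 2 UMIs in cycling and 55 in other cells (-1.68 [-4.76, 0.24]). *Erbb4* had 0.74 [0.38, 1.09] in CCANT, where 1 cell held 19 of the 81 UMIs in cycling cells, and 0.42 without the cell with most UMIs in each pool. *Hbegf* was at 25.69 CPM in cycling and 28.55 in other cells of CCA and at 33.97 and 25.79 in CCANT, where 1 cell held 61 of 251 UMIs and the ratio without such cells was 0.02. Median ratios over the members were -0.15 in CCA and -0.13 in CCANT, beside 0.03 over all genes in both.

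Asking for at least 3 UMIs of *Mki67* and *Top2a* left 240 CCA and 78 CCANT cycling cells. Then 6 members (*Egfr*, *Fgfr1*, *Fgfr2*, *Fgf2*, *Spry1* and *Spry2*) were lower against other cells than at 1 UMI in both libraries. Over all genes, 16.8% in CCA and 16.5% in CCANT were called lower, beside 2.7% and 4.24% at 1 UMI. Those called higher were 18.7% and 19.1%, beside 8.91% and 8.42%. How many of all genes moved downward was not counted. *Fgf2* was at 32.35 CPM against 59.52 in CCA (-0.88 [-1.09, -0.67]) and at 26.26 against 54.94 in CCANT (-1.06 [-1.46, -0.69]). *Egfr* was at 137.3 against 223.1 in CCA (-0.70 [-0.80, -0.60]) and at 149.0 against 205.3 in CCANT (-0.46 [-0.62, -0.30]). These cells thus held less of the ligand and of the receptor per UMI in both libraries. *Fgfr1* had -0.48 and -0.42, *Fgfr2* -0.34 and -0.39, *Spry2* -0.51 and -0.60, and *Spry1* -0.67 [-1.01, -0.34] and -0.33 [-0.87, 0.16]. *Erbb4* was higher, at 11.48 CPM against 7.0 in CCA (0.71 [0.33, 1.08]) and at 28.98 against 6.542 in CCANT (2.15 [1.74, 2.53]). Its UMIs were in 21 and 12 of the cycling cells, with 13 of 71 and 19 of 64 in the cell with most, and without such a cell in each pool the ratios were 0.50 [0.08, 0.89] and 1.72 [1.24, 2.17]. *Hbegf* had ratios of 0.19 [-0.03, 0.40] in CCA, where 1 cell held 61 of its 201 UMIs in cycling cells, and 0.26 [-0.12, 0.61] in CCANT, where 1 cell held 14 of 68. Without such a cell in each pool they were -0.30 [-0.56, -0.05] and -0.03 [-0.45, 0.36], so the direction rested on single cells. *Erbb2* and *Fgfr3* had intervals that include 0 in both libraries. Of 9 members in CCA, *Erbb4* was called higher and *Egfr*, *Fgf2* and *Spry1* lower, against 18.7% and 16.8% of all genes. Of 10 in CCANT, *Erbb4* was called higher and *Fgf2* and *Spry2* lower, against 19.1% and 16.5%. Such cells had more UMIs, with medians of 24960 against 20394 in CCA and 26086.5 against 20558 in CCANT, and the part of depth was not tested.

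**Figure D3:**
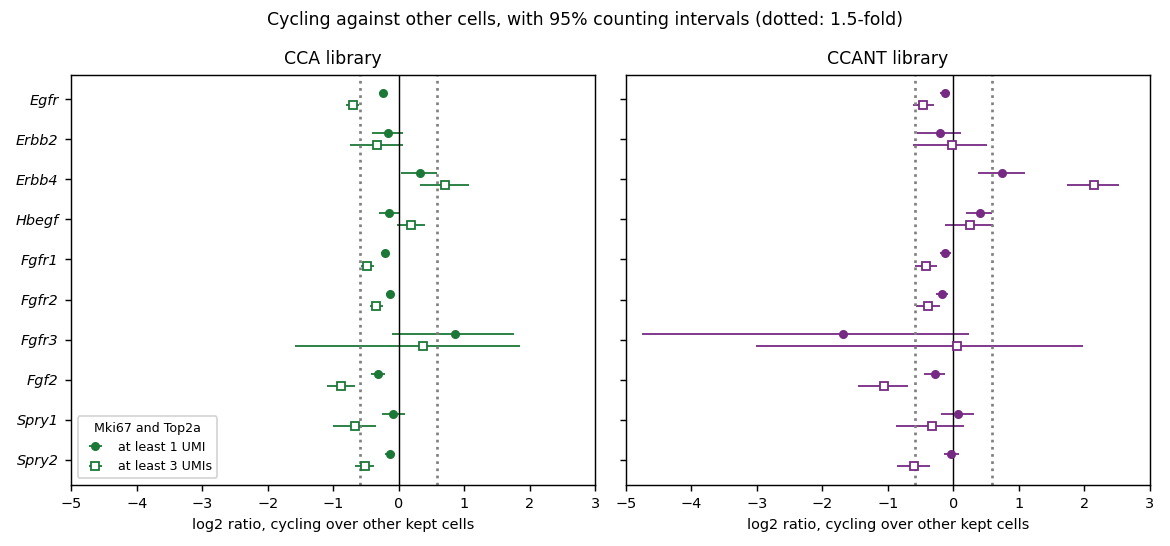
Log2 ratio of each gene's level in cycling over other kept cells (x axis), CCA on the left and CCANT on the right, with 95% counting intervals and 1.5-fold as dotted lines. Open squares (at least 3 UMIs of *Mki67* and *Top2a*) lie further left than filled circles (at least 1 UMI) for *Egfr*, *Fgfr1*, *Fgfr2*, *Fgf2*, *Spry1* and *Spry2* in both libraries.

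Kept cells also differed among themselves in the summed level of the immediate-early and dissociation genes, a list that holds no member. In each library the cells with the lowest sum were set against as many with the highest: 1252 in control (2838 against 7650 CPM of that list), 1296 in CCA (3862 against 15200) and 1092 in CCANT (3926 against 13860). *Spry2* was at 62.57 and 76.38 CPM in control, 70.44 and 111.6 in CCA, and 71.09 and 115.0 in CCANT. *Spry1* was at 13.48 and 21.06, 15.11 and 27.67, and 14.4 and 26.84. Both inhibitors were higher in the cells with the higher sum in all 3 libraries, with ratios of 0.29 [0.20, 0.37], 0.66 [0.58, 0.75] and 0.69 [0.60, 0.78] for *Spry2* and of 0.64 [0.46, 0.82], 0.87 [0.70, 1.05] and 0.90 [0.70, 1.10] for *Spry1*. *Egfr* ran the opposite way in each, from 298.0 to 236.1 CPM in control, from 229.0 to 196.4 in CCA and from 224.7 to 178.4 in CCANT. These list levels also moved with the treatment, and their part in the differences between libraries was not tested.

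*Hbegf* was at 18.97 and 24.82 CPM in the low and high group of control, 24.85 and 25.53 in CCA, and 20.25 and 34.25 in CCANT. The CCA value depended on how cells were ordered: by the number of listed genes with a UMI after thinning to 4000 UMIs per cell, *Hbegf* was at 23.15 and 34.15 CPM there (0.56 [0.41, 0.71]), beside 0.50 [0.34, 0.66] in control and 0.65 [0.48, 0.82] in CCANT. *Erbb4* was higher in the high group of each library, at 5.129 against 2.677 CPM, 13.11 against 3.931 and 9.483 against 5.762. The scarce *Fgfr3* was also higher in each, with 1 UMI in the low and 9 in the high group of control, 9 and 33 in CCA and 10 and 31 in CCANT. Its ratios were 3.04 [0.19, 8.49], 1.99 [0.89, 3.24] and 1.57 [0.50, 2.76]. By the other order of cells they were 2.84 [-0.06, 8.31], 1.64 [0.45, 3.0] and 1.79 [0.64, 3.12], so the control interval then included 0. *Fgfr1* stayed within 0.09 either way on the log2 scale, and *Fgfr2* was lower by 0.15 to 0.18. In control, *Erbb4* and *Spry1* were called higher of the 9 members tested and 0 lower, against 5.74% and 3.97% of all genes. In CCA *Erbb4*, *Spry1* and *Spry2* were called higher and 0 lower, against 8.79% and 7.31%. In CCANT *Erbb4*, *Hbegf*, *Spry1* and *Spry2* were called higher and 0 lower, against 5.97% and 4.26%. By the other order of cells, *Spry1* in control was at 0.48 [0.30, 0.66], under 1.5-fold.

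**Figure D4:**
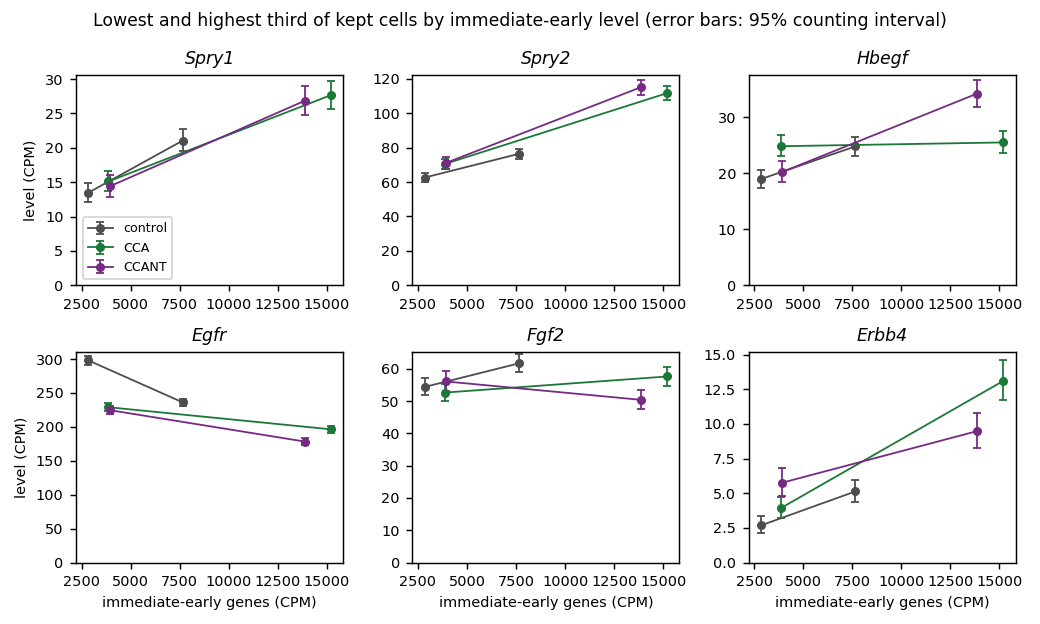
Level of 6 genes (CPM, linear axes from 0) against the summed level of immediate-early and dissociation genes (CPM), with a line per library from its low to its high group of kept cells and 95% counting intervals. *Spry1* and *Spry2* slope upward and *Egfr* downward in all 3 libraries.

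The promoters of *Spry1* and *Spry2* are printed because the 2 genes were higher together in those cells. Both are from RefSeq on GRCm38.p6, run 250 bases before to 50 after the start, and are given 5′ to 3′ on the gene's strand, with a match to the ETS core letters CCGGAA in capitals. *Spry1* lies at chr3:37639697-37639996 on the plus strand and *Spry2* at chr14:105896770-105897069 on the minus strand.
Spry1: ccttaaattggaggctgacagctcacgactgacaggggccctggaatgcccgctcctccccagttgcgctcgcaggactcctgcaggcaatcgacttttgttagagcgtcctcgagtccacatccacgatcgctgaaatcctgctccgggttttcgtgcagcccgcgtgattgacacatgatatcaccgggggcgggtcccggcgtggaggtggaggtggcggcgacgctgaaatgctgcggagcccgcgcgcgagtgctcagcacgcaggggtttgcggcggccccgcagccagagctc
Spry2: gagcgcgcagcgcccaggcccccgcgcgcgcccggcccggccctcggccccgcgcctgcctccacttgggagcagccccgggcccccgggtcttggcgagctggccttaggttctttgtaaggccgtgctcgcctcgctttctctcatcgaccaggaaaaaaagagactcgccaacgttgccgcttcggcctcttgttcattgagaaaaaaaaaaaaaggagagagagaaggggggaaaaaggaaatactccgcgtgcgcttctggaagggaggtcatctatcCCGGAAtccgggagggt
The *Spry1* window is 64.3% GC with 29 CpG and the *Spry2* window 62.7% with 28. Both strands were searched for the AP-1 letters TGANTCA, the CRE letters TGACGTCA and the ETS core. *Spry2* had 1 match, an ETS core beginning at base 34 of the transcript, and *Spry1* had 0. Among promoters of other members that were searched, those of *Egfr* and *Erbb4* held 1 ETS core match each. Over 32851 promoters of the same length, 7.81% hold the AP-1, 1.79% the CRE and 14.9% the ETS core letters. A match is a description of letters and not of a bound site.

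To place the members in the retina, cells left out of the authors' table that passed the quality limits were named by marker gates as rod-like (826 control, 1325 CCA and 1280 CCANT), cone-like (146, 238 and 178), bipolar-like (653, 980 and 1129) and amacrine-like (816, 1141 and 703). A gate is a threshold on marker UMIs per 10000, so each class is a range, and 4 to 166 of a class's cells in a library lay within 1.5 times of it. Ganglion-like cells were 0, 1 and 0 and horizontal-like cells 0, so these are not described. Transcripts of 10 MG genes were present in all classes, at a median of 4.81% to 5.879% of the kept-cell level in rod-like, 2.803% to 3.661% in cone-like, 2.881% to 3.492% in bipolar-like and 2.744% to 3.5% in amacrine-like cells.

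Kept cells held more *Egfr*, *Erbb2*, *Fgfr1*, *Spry1* and *Spry2* than all 4 neuron classes in all 3 libraries. The share of all genes that were so in all 4 classes together was not counted. *Fgfr1* was at 162.4 to 178.5 CPM in kept cells and at 3.065 to 14.43 CPM in the neuron classes, and *Erbb2* was at 11.34 to 13.13 against 0.2637 to 1.648. *Fgfr3* had at most 2 UMIs in any neuron class of a library. Over rod-like cells, 6 of 9 members tested were higher in every library (*Egfr*, *Erbb2*, *Hbegf*, *Fgfr1*, *Spry1* and *Spry2*) and *Fgfr2* and *Fgf2* lower, against 32.0% and 23.1% of all genes. Over cone-like cells 7 were higher, with *Fgf2* in addition, and 0 lower, against 30.4% and 20.2%. Over bipolar-like cells the 7 were higher and *Erbb4* lower, against 29.3% and 20.7%. Over amacrine-like cells *Egfr*, *Erbb2*, *Fgfr1*, *Fgf2*, *Spry1* and *Spry2* were higher and *Erbb4* lower, against 24.6% and 24.7%.

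**Figure D5:**
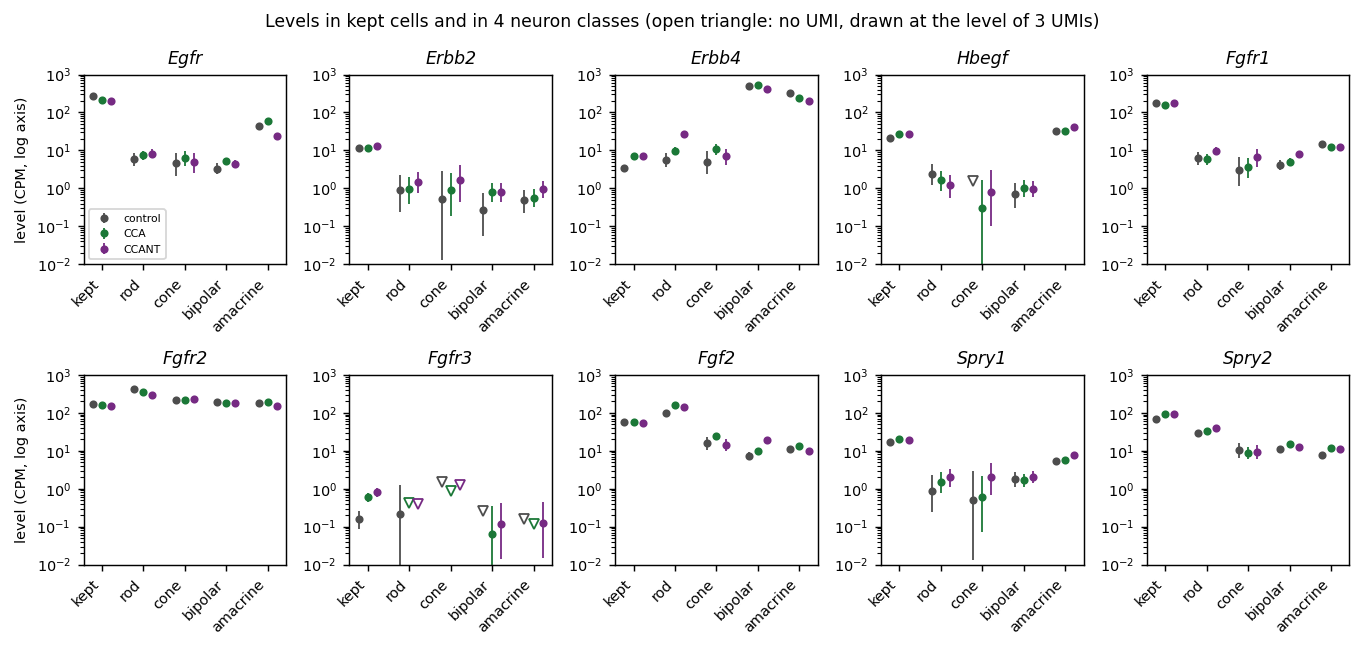
Level of each gene (CPM, log axis) in kept cells and in rod-like, cone-like, bipolar-like and amacrine-like cells of each library, with 95% counting intervals, and open triangles at the level of 3 UMIs where a pool had none. *Egfr*, *Erbb2*, *Fgfr1*, *Spry1* and *Spry2* peak in kept cells, *Erbb4* in bipolar-like and amacrine-like cells, and *Fgf2* in rod-like cells.

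Amacrine-like cells were the neurons with most *Egfr* and *Hbegf*. *Hbegf* was at 31.96, 32.45 and 40.42 CPM there in control, CCA and CCANT, above kept cells by more than counting error in each (kept over amacrine -0.56 [-0.69, -0.43], -0.22 [-0.33, -0.10] and -0.60 [-0.73, -0.47]), and at 0 to 2.438 CPM in the other classes. *Egfr* was at 43.5, 61.08 and 24.63 CPM, which is 15.96%, 28.31% and 12.11% of the kept-cell level and above the median MG gene, though the MG gene *Dkk3* reached 13.54%, 17.12% and 16.49%. The CCANT library was lowest and the CCA library highest, with ratios to control of -0.82 [-1.0, -0.65] and 0.49 [0.37, 0.61]. After thinning, 11.89%, 18.67% and 7.824% of amacrine-like cells held an *Egfr* UMI. The CCANT ratio was -0.84 in Y-linked cells alone.

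*Erbb4* was concentrated in few neurons. In bipolar-like cells, 57 control, 70 CCA and 66 CCANT cells with at least 10 UMIs held 97.1%, 97.1% and 96.1% of its UMIs, and in amacrine-like cells 87, 99 and 71 cells held 96.5%, 93.8% and 92.7%. Most bipolar-like cells held none of it, and 17.61%, 17.24% and 14.61% of them had a UMI. The summed *Erbb4* level of amacrine-like cells was lower in the treated libraries, with ratios of -0.44 [-0.50, -0.39] and -0.73 [-0.79, -0.67]. The thinned share of these cells with a UMI was 14.34% (control), 12.88% (CCA) and 14.37% (CCANT). The 10 cells with most UMIs held 34.6%, 29.4% and 40.9%, and the intervals do not cover such unevenness between cells. Bipolar-like cells had ratios of 0.07 [0.02, 0.12] and -0.29 [-0.34, -0.24]. Within CCANT bipolar-like cells, *Erbb4* was higher in Y-linked than in *Xist* cells by 0.89 [0.82, 0.97]. In rod-like cells it was at 5.763, 9.728 and 27.96 CPM, but 181 of the 206 CCANT UMIs were in 1 cell, and the ratio of CCANT to control of 2.28 became -0.70 without the cell with most UMIs in each pool.

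*Fgf2* stood out in rod-like cells, at 95.97 (control), 159.5 (CCA) and 143.1 CPM (CCANT), from 433, 1164 and 1054 UMIs. Both treated libraries were above control, with ratios of 0.73 [0.57, 0.90] and 0.58 [0.41, 0.74], and the thinned shares were 25.37%, 37.3% and 35%. Thinning left out 73, 132 and 97 rod-like cells below 4000 UMIs, and the unthinned shares were 30.15%, 41.89% and 42.27%. Rod-like cells held more *Fgf2* than kept cells in every library (kept over rod -0.74 [-0.88, -0.60], -1.48 [-1.58, -1.39] and -1.41 [-1.51, -1.31]). No single cell held more than 14 of the UMIs. The CCANT ratio was 0.54 in Y-linked cells alone, and the rod-like cells of CCA had 0 Y-linked cells, so sex and treatment cannot be told apart there.

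In bipolar-like cells *Fgf2* was at 7.296, 9.925 and 18.64 CPM, with a CCANT ratio of 1.35 [1.00, 1.72]. That was 7.6%, 6.22% and 13.0% of the rod-like level, while rod markers in bipolar-like cells were at 2.95%, 3.71% and 4.53% of theirs, and their part in the difference was not tested. *Fgf2* was at 15.84, 23.77 and 14.42 CPM in cone-like and at 11.0, 13.51 and 9.644 in amacrine-like cells. Its CCA ratio was 0.44 [0.05, 0.85] in bipolar-like, 0.30 [0.04, 0.55] in amacrine-like and 0.59 [-0.03, 1.23] in cone-like cells. The last was past 1.5-fold, on 80 against 31 UMIs, and the share of all genes past it there was not counted. CCANT ratios were -0.13 [-0.87, 0.61] in cone-like and -0.19 [-0.50, 0.12] in amacrine-like cells. *Spry2* was at 29.48, 32.61 and 39.9 CPM in rod-like cells, 42.37%, 35.55% and 43.55% of the kept-cell level, and at 7.676 to 15.36 CPM in the other classes. *Spry1* was at 5.389, 5.688 and 7.74 CPM in amacrine-like cells and at 0.5109 to 2.06 CPM in the others. *Fgfr2* was at 426.9, 352.7 and 293.3 CPM in rod-like and at 154.8 to 226.2 CPM in the other classes, with the doubt about its annotation.

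Within rod-like cells, *Erbb4* and *Fgf2* were called higher in CCA than in control of the 6 members tested and 0 lower, against 5.1% and 2.61% of all genes. In CCANT *Erbb4* and *Fgfr1* were called higher and 0 lower, against 11.1% and 4.86%, with *Fgf2* just under 1.5-fold and *Fgfr1* at 73 UMIs against 28. For *Erbb4*, 1 rod-like cell held 11 of the 71 UMIs in CCA and 1 held 181 of the 206 in CCANT. The thinned share of rod-like cells with an *Erbb4* UMI was 2.523% (control), 2.682% (CCA) and 1.522% (CCANT). Within bipolar-like cells *Egfr* was called higher in CCA of 6 tested and 0 lower, against 3.09% and 2.86%. In CCANT *Fgfr1* and *Fgf2* were called higher of 7 tested and 0 lower, against 4.16% and 3.35%. *Fgfr1* and *Egfr* in rod-like and bipolar-like cells were at 1.226% to 5.55% of the kept-cell level, a range that overlaps that of the MG genes given above, and the part of MG transcripts in these values was not tested. The highest was *Fgfr1* in CCANT rod-like cells, and in CCANT bipolar-like cells *Fgfr1* was at 4.583%, where the highest of the 10 MG genes was at 4.523%. Within amacrine-like cells *Spry2* was called higher in CCA of 8 tested and 0 lower, against 5.87% and 4.94%. In CCANT 0 were called higher, and *Egfr* and *Erbb4* lower, against 4.66% and 6.05%.

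For each member the genes with the most similar pattern were found over 17 pools of library and class (Pearson correlation of log2(CPM + 1) among 11195 genes). The pools share libraries and differ mainly by cell type, so the values are a description with no test. The closest were *Pax6os1*, *Colgalt2* and *Prex2* to *Egfr* (0.993 to 0.991), *Gm29260*, *Aqp5* and *Apoe* to *Erbb2* (0.995 to 0.994), and *1700111E14Rik*, *Ntrk2* and *Arhgap15* to *Erbb4* (0.985 to 0.982). For the ligands they were *Hunk*, *Ppfibp1* and *Stxbp6* to *Hbegf* (0.990 to 0.988) and *Chst3*, *Kctd4* and *Snap23* to *Fgf2* (0.969 to 0.957). For the FGF receptors they were *Slc39a1*, *Folr1* and *St8sia2* to *Fgfr1* (0.999 to 0.993), *N4bp2l2*, *Fam193a* and *A930007I19Rik* to *Fgfr2* (0.982 to 0.971), and *Ppp1r15a*, *Ndufa4l2* and *Dnajc3* to *Fgfr3* (0.857 to 0.855). For the inhibitors they were *Ddr1*, *Nt5c* and *Adam23* to *Spry1* (0.989 to 0.988) and *Cebpd*, *Spidr* and *Dhrs7* to *Spry2* (0.982 to 0.978). The scarce *Fgfr3* had no gene as close as the others did.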

How the data were processed

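Single cells were measured in 3 droplet libraries, 1 each for control, CCA and CCANT. Per the labels and the methods, the authors used Cell Ranger 6.1.1 on mm10 plus tdTomato and GFP, with introns included, and deposited a matrix of raw UMI counts for each library and a series-wide table of counts for cells kept after their filters. Per the methods, they kept only cells expressing tdTomato and removed predicted doublets. They also removed small clusters they took as contaminated and a cluster of MG with rod transcripts. Doublets were not removed again here. Neuron classes and MG outside the table came from cells the authors left out, so they can hold doublets that they removed. MG outside the table can have been left out by any of these filters, so they are not the same population as kept cells. The control columns of that table hold fewer UMIs per cell than the library matrix, so counts were taken from the matrices for its barcodes. Neuron classes came from cells outside it within the authors' limits (2000 features or more, no more than 100000 UMIs, mitochondrial share up to 15%) that passed exactly 1 gate: at least 25 (MG), 150 (rod), 100 (cone), 30 (bipolar) or 15 (amacrine) marker UMIs per 10000. The thresholds were set after the marker distributions had been seen.

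Summed UMIs were compared as CPM with exact 95% Poisson intervals and shares with Clopper-Pearson intervals (Python 3.11.15, numpy 2.4.6, scipy 1.17.1, pandas 2.3.3), and the code was checked on simulated data. Depth was 95458516, 83266870 and 70825549 UMIs over kept cells. With 1 library per group no test was made. The members and lists were chosen with earlier results of these data known. Named genes are the members, the pathway genes past 1.5-fold against control (at most 4 per list and comparison, by size), and the 3 most similar genes per member. Another cycling threshold, other scaling, other cell selections, shares at 8000 UMIs and an order of cells by the number of immediate-early genes with a UMI (at 4000 UMIs per cell) were tried as alternatives.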

Additional observations from a re-analysis of the deposited data

Results flagged for a closer look

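*Hbegf* drew attention because its cycling over other log2 ratio pointed in different directions: 1.22 in control, 0.4 in CCANT and -0.15 in CCA. In control, 43 of its 60 UMIs in the 42 cycling cells were in 1 cell. The ratio of the cells with the highest to those with the lowest immediate-early sum also differed in sign between libraries for a pair of members. *Fgfr1* had 0.05 [0.0, 0.11] in control and -0.09 [-0.15, -0.03] in CCA, and *Fgf2* had 0.18 [0.09, 0.28] in control, 0.13 [0.03, 0.24] in CCA and -0.15 [-0.27, -0.04] in CCANT. With cells ordered by the number of listed genes with a UMI, both negative values were within counting error of 0, at -0.03 [-0.09, 0.03] and -0.11 [-0.22, 0.01]. The differences between libraries were not tested.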

How the results depend on the processing

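The alternatives covered depth scaling, the series-wide counts, kept cells without rod-gate or cycling cells, means over cells, no UMI minimum and Y-linked cells. Those on single cells, on neuron gates in kept cells, on MG outside the table and on values in neuron classes were chosen after seeing the data. Of the counts of genes, 36 settings kept within 1.5 times and 8 did not. Those past 1.5-fold were 1 in place of 2 in CCA over control without cycling cells, where *Fgfr3* had 48 UMIs, and 1 in place of 2 in CCANT over control in Y-linked cells, where it had 42. In MG outside the table that count was 1, with *Erbb4* at 0.38. Without cycling cells, CCANT over CCA had 1 in place of 0 (*Fgfr3* at 0.79). For cycling over other cells in CCA the count was 4 in place of 0 at 3 UMIs of *Mki67* and *Top2a* and 1 with no minimum of UMIs. In CCANT it was 1 in place of 2 with means over cells and 1 without the cell with most UMIs.

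Among values past 1.5-fold, the sign turned for *Fgfr3*, cycling over other cells in CCANT, at 0.06 with 3 UMIs, and *Erbb4* in rod-like cells, CCANT over control, at -0.28 with the gate raised, -0.7 without the cell with most UMIs and -0.55 in Y-linked cells. Among values within 1.5-fold it turned for cycling over other cells at 3 UMIs in *Hbegf* in CCA (-0.15 to 0.19) and *Spry1* in CCANT (0.07 to -0.33), and for *Hbegf* in CCANT (0.4 to -0.03) when the cell with most UMIs was also left out. It also turned for CCA over control in *Fgf2* without cycling cells (-0.01 to 0.05) and *Spry1* in MG outside the table (0.26 to -0.02). With cells ordered by the number of immediate-early genes with a UMI, *Hbegf* in CCA was at 0.56 in place of 0.04. Of the values for single genes, 423 stayed within their counting interval, 54 moved outside it, and 4 more were those past 1.5-fold whose sign turned. The 423 include the setting with no UMI minimum, which by construction leaves the value of a single gene unchanged. The 5 genes higher in kept cells than in all neuron classes were 5 with raised gates and without tdTomato cells. The cause of each change was not tested, except where fewer UMIs or 1 cell is named. No paired analysis was possible because each group has 1 library. Depth limits *Fgfr3* through its few UMIs and rod-like cells through their few UMIs per cell, and mice of the same sex cannot be separated within a library.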
